A study of Mus musculus with 9 samples.

Results

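The genes described here are 28 mouse genes of cholesterol synthesis and sterol regulation. They were taken by symbol from a table of 33299 RefSeq transcripts, which 23798 gene symbols share, and all 28 were found, in 40 transcripts. By role they comprise 7 enzymes of the mevalonate part of the route, 11 enzymes from squalene to cholesterol, 5 genes of SREBP control, and 5 genes of sterol transport, efflux and turnover. RNA came from mouse brain samples whose labels give the cell type as oligodendrocyte, in 3 groups of 3 samples. These were mice of the genotype labelled TG given NM-101, TG mice given placebo, and WT mice given placebo. The series title names a-synuclein derived from neurons, but the labels give neither the transgene nor its promoter, the age or sex of the mice, or the dose and duration of NM-101. Nothing in them ties a sample to an animal of its own, so the p-values rest on the spread between these libraries, part of which may be technical.

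Cells build cholesterol from acetyl-CoA through mevalonate, isoprenoid diphosphates and squalene. The route is held in check by SREBP transcription factors, which Scap escorts out of the endoplasmic reticulum when sterols are low and Insig proteins hold back when sterols are high. LXR receptors, which sense oxysterols, act in the opposite direction and turn on export pumps such as Abca1. The brain makes its own cholesterol, much of it for myelin, and neurons remove the surplus by converting it to a hydroxylated form with Cyp46a1.

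The table mixes scales. The WT columns hold counts of reads per transcript, with totals from 10612290 to 14041951. The TG columns hold log2 values that were read as log2(FPKM + 1), a level per transcript length and library size, because over 14111 transcripts they had a slope of 0.95 on the WT counts scaled to library size and one of -0.87 on length, all on log2 scales. The depth of the TG libraries is unknown from the labels. The TG placebo libraries differed among themselves. The 20 myelin and oligodendrocyte markers summed to 5628 FPKM in replicate 1 and to 1814 and 1746 FPKM in replicates 2 and 3, which were the highest and the lowest sums of all libraries. The 8 choroid plexus and ependymal markers summed to 4602 FPKM in TG placebo replicate 1, to 1048 FPKM in NM-101 replicate 2 and to 3067 RPKM in WT replicate 1, against 9.04 to 74.0 in the other 6 libraries. The 7 nuclear-retained RNAs summed to 1139 and 1380 FPKM in TG placebo replicates 2 and 3. Their sums were 197 FPKM in replicate 1 and 307 to 398 FPKM under NM-101. The WT sums, 114 to 183 RPKM, hold only the 6 with a known length, so they are not comparable with the TG sums. The median log2 level of these 6 was 5.40 and 5.54 in TG placebo replicates 2 and 3 and 3.24 in replicate 1. It was 3.19 to 3.95 under NM-101 and 2.92 to 3.61 in WT. Each result whose call changes without TG placebo replicate 1 is given both ways. The 15 neuronal markers summed to 4889 to 5367 FPKM under NM-101 and 4765 to 5143 FPKM under TG placebo, so the libraries hold neuronal RNA as well as the labelled cell type. None of the 20 oligodendrocyte markers was at 0 throughout. In bulk samples fewer cells of a type and less RNA per cell cannot be told apart.

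Short sequences near some of these genes are known from the regulation described above, and 4 stretches that hold one are printed from the RefSeq promoter windows of GRCm38.p6 (250 bases before to 50 after a start). The first kind is a sterol response element, searched as TCACNCCA on both strands. The second is a direct repeat bound by LXR, searched as GGTNA, any 5 bases and GGTCA on both strands, a pattern chosen with the known element of Abca1 in mind. Windows were given for 23 of the 28 genes, 31 windows in all. The first pattern was in 3 of these 31 windows (Hmgcs1, Msmo1 and Srebf2) and in 4.36% of all 32851 windows. The second was in 2 (Abca1 and an internal start of Srebf1) and in 0.207% of all windows. Capitals mark the match, each stretch reads 5′ to 3′ on the strand of its gene, and none touches an annotated exon of GENCODE M21. A match describes letters, not a site in use.
Abca1, chr4:53159896-53160022, minus strand: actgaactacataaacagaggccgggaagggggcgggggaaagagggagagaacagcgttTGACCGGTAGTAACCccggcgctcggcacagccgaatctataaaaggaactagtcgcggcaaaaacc
Srebf1, chr11:60210579-60210713, minus strand: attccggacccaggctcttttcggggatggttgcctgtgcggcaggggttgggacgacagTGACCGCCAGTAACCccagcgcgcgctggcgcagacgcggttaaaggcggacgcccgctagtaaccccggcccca
Hmgcs1, chr13:119690154-119690281, plus strand: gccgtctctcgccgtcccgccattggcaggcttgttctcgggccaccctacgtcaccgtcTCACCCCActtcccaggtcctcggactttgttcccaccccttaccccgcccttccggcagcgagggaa
Srebf2, chr15:82147047-82147174, plus strand: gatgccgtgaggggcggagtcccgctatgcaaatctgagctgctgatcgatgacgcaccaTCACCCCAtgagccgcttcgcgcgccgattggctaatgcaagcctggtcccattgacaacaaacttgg
The match in Abca1 lies from -67 to -53 relative to the start and that in Srebf1 from -182 to -168, both read on the opposite strand of the gene. The matches in Hmgcs1 (-137 to -130) and Srebf2 (-162 to -155) read on the strand of the gene. The CCAAT box, which binds the SREBP partner NF-Y and was searched as CCAAT on both strands, was in 20 of the 31 windows and in 37.4% of all windows. A GC box, searched as GGGCGG on both strands, was in 25 of the 31 windows and in 35.7% of all windows. The excess over all windows was thus not particular to CCAAT.

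In WT brain the 18 synthesis enzymes together held 10424, 16816 and 11632 counts, or 982, 1198 and 988 CPM (counts scaled to library size) in replicates 1, 2 and 3. Levels between genes were compared per length, as log2(RPKM + 1) with transcript lengths from GENCODE M21. Hmgcs1, which makes HMG-CoA, was the highest of the 28, at 6.45, 6.75 and 6.46 in the 3 libraries, from 3030, 5013 and 3426 counts. Msmo1, a sterol methyl oxidase, came next among the enzymes at 5.70 ± 0.18, and Fdps, which makes farnesyl diphosphate, had 5.59 ± 0.14 (SD, n = 3). Cyp46a1, the cholesterol hydroxylase of neurons, lay between them at 5.64 ± 0.14. These 3 neighbours in the order did not differ beyond their spread.

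The remaining enzymes formed a long tail on the log2(RPKM + 1) scale. Pmvk, Fdft1 and Idi1 stood from 4.80 to 4.90, and Cyp51 and Sqle, the demethylase of lanosterol and the epoxidase of squalene, at 4.39 and 4.35. Acat2, Mvk and Mvd, the thiolase, kinase and decarboxylase of the early route, stood from 3.58 to 4.03. Nsdhl, Sc5d, Ebp, Dhcr7, Tm7sf2, Lss and Hsd17b7, which all act after squalene, ran down to 2.40. In SREBP control, Insig2 was highest at 5.08 ± 0.05, then Insig1 at 4.83 ± 0.29 and the factor Srebf2 at 4.72 ± 0.05, while Scap was at 4.07 ± 0.09 and Srebf1 at 3.37 ± 0.30 (SD, n = 3). Insig1, Insig2 and Srebf2 overlap only in part: every Insig2 value was above every Srebf2 value, and Insig1 spread across both. The pumps Abcg1 and Abca1 stood at 3.57 ± 0.25 and 2.22 ± 0.31, the LXR gene Nr1h2 at 4.30 ± 0.15, and the sterol carrier Stard4 was lowest at 1.51 ± 0.23. The kit reads from the 3′ end, so dividing by length can lower long transcripts such as that of Abca1, which has 10262 bases. The order in SREBP control turned with this choice: before division by length Srebf2 was highest at 129 CPM, followed by Insig1 at 75.2, Scap at 67.0, Insig2 at 49.9 and Srebf1 at 40.9 CPM.

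**Figure D1:**
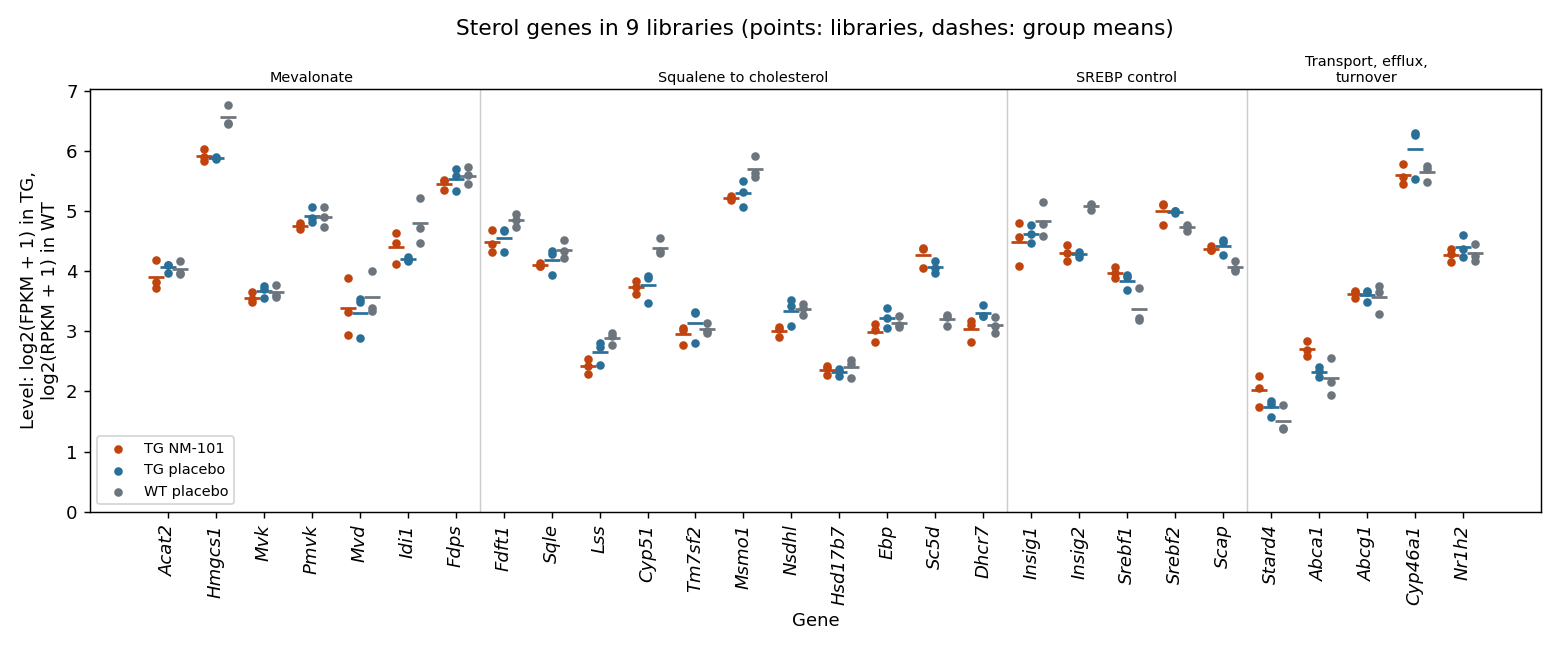
Levels of the 28 genes, ordered by role on the horizontal axis, in each TG NM-101, TG placebo and WT placebo library, on the log2(FPKM + 1) scale in TG and the log2(RPKM + 1) scale in WT. Hmgcs1 is the highest gene in WT at a mean of 6.55 and Stard4 the lowest at 1.51, and for most genes the 2 TG groups overlap.

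Of the 18 enzymes, 15 were highest in WT replicate 2 among the WT libraries, where 34.0% of all 12410 genes were, and these 15 included all 7 mevalonate enzymes. Idi1, the isopentenyl diphosphate isomerase, had 110 CPM there, against 64.0 and 76.1 CPM in replicates 1 and 3, and Mvd had 26.3 CPM against 16.0 and 16.6. Some genes of the LXR arm were ordered otherwise. Abca1 had 50.0, 29.3 and 35.2 CPM in replicates 1, 2 and 3. Abcg1 had 73.0, 51.1 and 67.6 CPM, and Srebf1 52.4, 34.7 and 35.6 CPM. These 3 were lowest in replicate 2, Srebf1 by little, as were 32.8% of all genes. The LXR gene Nr1h2 had 33.9, 41.8 and 36.1 CPM and was highest there. WT replicate 2 also had the lowest sum of myelin markers, 2973 RPKM against 4271 and 4894 in replicates 1 and 3. The part of that difference in the sterol values was not tested.

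In TG placebo 14 of the 18 enzymes were lowest in replicate 1, where 43.7% of all genes were. The 18 enzymes summed to 305 FPKM there, against 348 and 359 FPKM in replicates 2 and 3. Under NM-101 the sums were 316, 321 and 337 FPKM, inside the range of the TG placebo libraries. No NM-101 library was highest or lowest for most of the enzymes: replicate 3 was highest for 9 of the 18, and replicate 2 lowest for 8. In the plot of enzymes by library, replicate 1 of TG placebo lies below its group and WT replicate 2 above its own.

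**Figure D2:**
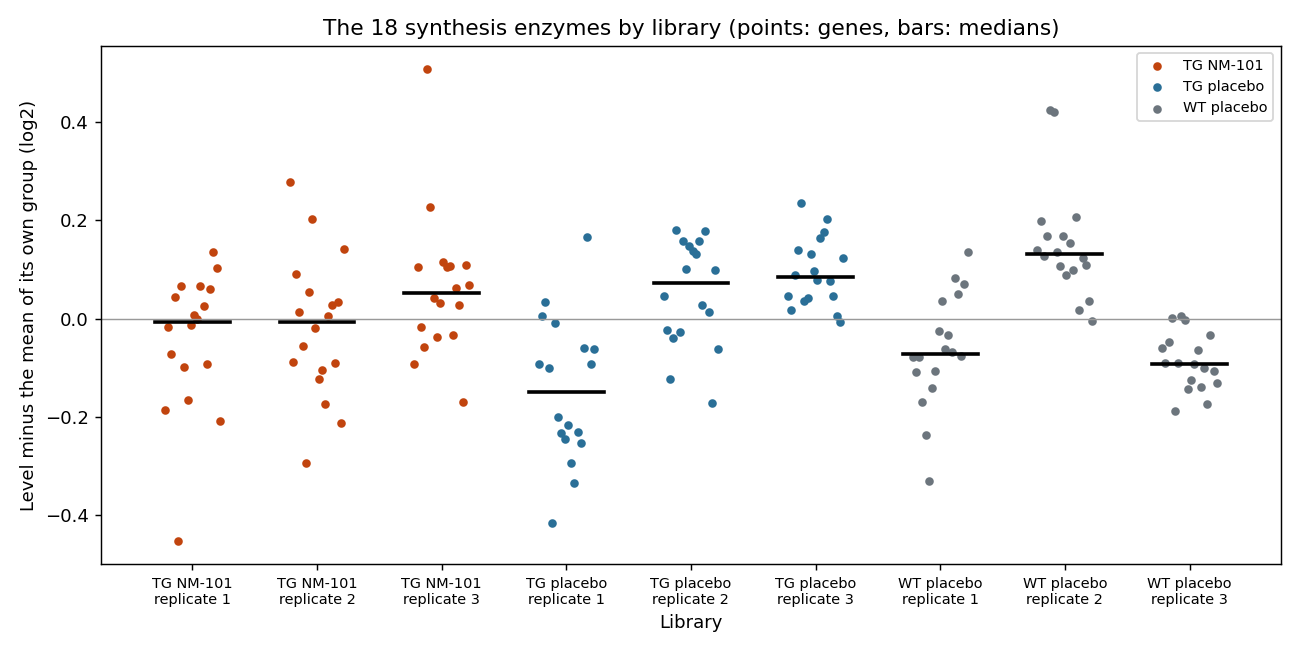
Level of each of the 18 synthesis enzymes minus the mean of its own group (vertical axis, log2 scale) in each library, with the median of the 18 as a bar. TG placebo replicate 1 was lowest for 14 of 18 enzymes and WT replicate 2 was highest for 15 of 18.

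The effect of NM-101 within the TG genotype was tested with limma on the 6 TG samples, over 12699 genes that had a mean log2 value of at least 1, a filter all 28 passed. None of the 28 passed at an adjusted p under 0.05, against 0.134% of all genes tested (17 genes, 13 higher under NM-101 and 4 lower, which median-ratio scaling changed to 1 higher and 3 lower in all). Unadjusted p-values under 0.05 were found for 2 of the 28, Abca1 higher and Nsdhl lower, and for 10.7% of all genes on the higher side and 4.17% on the lower side. The limma adjusted p of the 28 ran from 0.252 to 0.979. Their differences had a median of -0.07 on the log2(FPKM + 1) scale, with 17 of 28 below 0, where the median of all genes was 0.03 and 44.5% were below 0. A p that misses the threshold does not show equal levels. The 95% intervals ran from -0.16 to 0.24 for Hmgcs1, among the narrowest, to -0.55 to 0.70 for Mvd, the widest.

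Among the 7 mevalonate enzymes, 3 differences were above 0 and 4 below, with a median of -0.08. Hmgcs1 stood at 5.90, 5.83 and 6.02 under NM-101 and at 5.88, 5.85 and 5.89 under TG placebo, so the groups overlap, and its difference was 0.04 ± 0.09 (SE). Idi1 had the largest difference of these enzymes, 0.21 ± 0.14 (SE). It stood at 4.47, 4.11 and 4.63 under NM-101 and at 4.19, 4.17 and 4.24 under TG placebo, with NM-101 replicate 2 below all 3 placebo libraries. Its difference was 0.35 without that library and 0.09 without NM-101 replicate 3, and without NM-101 replicate 1 that of Mvd, 0.30, was larger than its own, 0.17. Pmvk, the phosphomevalonate kinase, stood at 4.80, 4.77 and 4.70 under NM-101 and at 4.82, 4.88 and 5.06 under TG placebo. These groups do not overlap, although the highest NM-101 library and the lowest placebo library nearly meet, and the limma adjusted p was 0.442. The other 4, Acat2, Mvk, Mvd and Fdps, differed by -0.16 to 0.08 and overlapped. Acat2 shares 50.8% of its 30-base words with its copy Acat3, so reads may have been divided between them.

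Of the 11 enzymes from squalene to cholesterol, 9 differences were below 0 and 2 above, with a median of -0.09. Nsdhl, a sterol dehydrogenase that removes the methyl groups of lanosterol's products, had the largest, -0.33 ± 0.14 (SE), a 0.794-fold level. The gene lies on chromosome X from 72918557 to 72958514 in GRCm38 (GENCODE M21). It stood at 2.91, 3.03 and 3.06 under NM-101 and at 3.08, 3.51 and 3.41 under TG placebo, and its limma adjusted p was 0.314. The groups do not overlap, but the lowest placebo library, replicate 1, lay close to the highest NM-101 library. Without TG placebo replicate 1 the difference was -0.46 and passed, with a limma adjusted p of 0.0218. That fit called 2262 of 12729 genes, so the call is not particular to Nsdhl. Without replicate 2 the difference was -0.24, with a limma adjusted p of 0.742.

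Dhcr7, the reductase of the last step of one branch of the route, stood at 2.83, 3.18 and 3.10 under NM-101 and at 3.25, 3.25 and 3.44 under TG placebo. Every NM-101 library was below every placebo library, and the difference was -0.28 ± 0.13 (SE) with a limma adjusted p of 0.375. Lss, which closes the sterol rings, was at 2.42, 2.30 and 2.53 under NM-101 and at 2.44, 2.80 and 2.74 under TG placebo, a difference of -0.24 ± 0.15 (SE). Ebp, a sterol isomerase, differed by -0.23 and Tm7sf2, a sterol reductase, by -0.19. Sc5d, a desaturase, went the other way at 0.21 ± 0.12 (SE), with 4.37, 4.06 and 4.38 under NM-101 and 3.97, 4.16 and 4.06 under TG placebo, which overlap. Msmo1, the most abundant enzyme of this step, stood at 5.24, 5.22 and 5.18 under NM-101 and at 5.06, 5.32 and 5.50 under TG placebo. Its NM-101 values lay within the placebo range, with a difference of -0.08 ± 0.12 (SE). Fdft1, Sqle, Cyp51 and Hsd17b7 differed by -0.09 to 0.04. Fdft1, squalene synthase, shares 774 exon bases with Ctsb on the opposite strand and Tm7sf2 shares 532 with Vps51 on its own strand. Whether counting used strand is not given in the sources used here, so reads of these pairs cannot be told apart.

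Groups did not overlap for 1 of the 28 genes that was higher under NM-101 (Abca1) and 3 that were lower (Pmvk, Nsdhl and Dhcr7). Over all genes tested the shares were 13.6% higher and 5.98% lower, so the higher count was below that background and the lower count not far above it. Pmvk, Lss, Dhcr7 and Sc5d were set out by library after their values were seen.

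The genes of SREBP control showed the narrowest range of differences of the 4 roles, with a median of 0.01 and values from -0.13 to 0.13. Srebf2, which encodes the main SREBP of cholesterol synthesis, stood at 5.11, 4.77 and 5.11 under NM-101 and at 5.00, 5.00 and 4.97 under TG placebo. Its difference was 0.01 ± 0.11 (SE), with a 95% interval from -0.25 to 0.26. Srebf1, whose product also drives fatty acid synthesis, differed by 0.13 ± 0.11 (SE). Insig1, itself a target of SREBP, stood at 4.09, 4.56 and 4.80 under NM-101 and at 4.47, 4.62 and 4.76 under TG placebo, a difference of -0.13 ± 0.18 (SE) with groups that overlap. Insig2 stood at 4.43, 4.16 and 4.30 under NM-101 and at 4.32, 4.23 and 4.28 under TG placebo, a difference of 0.02. Scap differed by -0.05. Its 2 transcripts took uneven shares between libraries, with the second near 0 in some and above 2 in others on the log2 scale, while their sum stayed from 4.27 to 4.52.

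Sterol export and turnover held the largest differences in each direction. Abca1, the pump that loads cholesterol onto apolipoproteins and an LXR target, lies on chromosome 4 from 53030787 to 53159895 in GRCm38 (GENCODE M21). It stood at 2.59, 2.69 and 2.83 under NM-101 and at 2.34, 2.40 and 2.24 under TG placebo. Every NM-101 library was above every placebo library, and the difference was 0.38 ± 0.13 (SE), 1.30-fold, with a limma adjusted p of 0.252. It ran from 0.31 to 0.43 as single libraries were left out, and the limma adjusted p from 0.0746 to 0.665. Markers of astrocytes and microglia also had mostly positive differences. All 14 astrocyte markers had differences above 0, 1 of which passed, with sums of 3376 to 3750 FPKM under NM-101 and 2425 to 2872 FPKM under TG placebo. Of the 12 microglial markers 10 had differences above 0, with sums of 427 to 441 FPKM under NM-101 and 332 to 361 FPKM under TG placebo, and of 11 endothelial and mural markers 0 were above 0. Of the 20 myelin and oligodendrocyte markers 16 had differences above 0, with a median of 0.14, and none passed. Their sums of 2376 to 4074 FPKM under NM-101 lay inside the TG placebo range of 1746 to 5628 FPKM. None of these markers was at 0 throughout, and their part in the Abca1 value was not tested.

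Cyp46a1, on chromosome 12 from 108334381 to 108362234, had the largest difference in the other direction, -0.43 ± 0.21 (SE). It stood at 5.45, 5.78 and 5.57 under NM-101 and at 5.52, 6.26 and 6.29 under TG placebo. The groups overlap through placebo replicate 1 alone, and the limma adjusted p was 0.382. Without that library the difference was -0.68 with a limma adjusted p of 0.00361, and without replicate 3 it was -0.30 with one of 0.775. The fit without replicate 1 called 2262 of 12729 genes, and replicates 2 and 3 were the placebo libraries with the high sums of nuclear-retained RNA, so the call cannot be told apart from that contrast. The 15 neuronal markers had a median difference of 0.02, with 9 above 0. Of the remaining genes, Abcg1, the other pump, was at 3.62 ± 0.07 under NM-101 and 3.60 ± 0.10 under TG placebo (SD, n = 3). Stard4 differed by 0.28 ± 0.17 (SE) and Nr1h2 by -0.14 ± 0.12 (SE), both with overlapping groups.

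**Figure D3:**
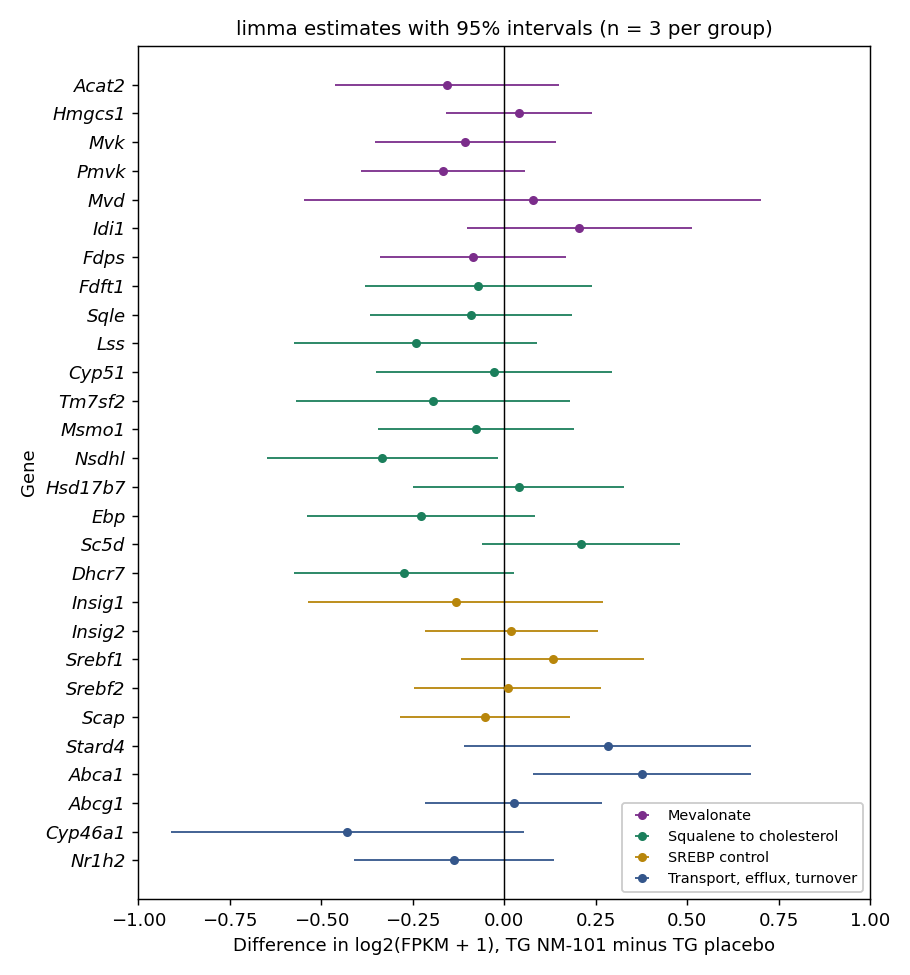
Difference in log2(FPKM + 1), TG NM-101 minus TG placebo, for each of the 28 genes, with the 95% interval of the limma fit and colours for the roles. The intervals of Abca1 (0.08 to 0.67) and Nsdhl (-0.65 to -0.02) exclude 0 before adjustment, and none of the 28 passed after it.

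Transcript length did not enter the choice of the genes. The most abundant transcript had a median of 4612 bases in the 11 genes above 0 and of 2168 bases in the 17 below. The sets overlap widely, from 1292 to 10262 bases above 0 and from 1194 to 4667 below. Over all genes tested that had a length, the medians were 2892 bases above 0 and 3003 bases below, and no test was run on length.

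The comparisons with WT asked what the TG genotype, with and without NM-101, changed. Because the authors scaled the WT and TG columns in different ways, no test was run and levels are set side by side on the log2(RPKM + 1) and log2(FPKM + 1) scales. Both comparisons use the same 3 WT libraries. If the authors used another length for a gene than that of GENCODE M21, all 6 TG libraries of the gene would shift together. For TG NM-101 minus WT placebo the median of the 28 genes was -0.13, against 0.05 over all 12410 genes. In it 17 of the 18 enzymes were below 0, as were 5042 of the 12410 genes. Without WT replicate 2 that median of the 28 was -0.06, and Mvd and Hsd17b7 stood just above 0, both at 0.02. For TG placebo minus WT placebo the median was 0.02, against 0.05 over all genes. Here 11 of the 18 enzymes were below 0, as were 5407 of the 12410 genes. Groups did not overlap for 5 genes higher and 8 lower in TG NM-101 than in WT, where the shares over all genes were 23.5% and 13.1%, so the lower genes alone exceeded their share. In TG placebo 4 were higher and 6 lower than in WT, where the shares were 20.8% and 15.9%, and both counts were near them.

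Some of the most abundant enzymes were lower than in WT in both TG groups. Hmgcs1 stood at 5.92 ± 0.10 under NM-101, 5.88 ± 0.02 under TG placebo and 6.55 ± 0.17 in WT (SD, n = 3), and all 6 TG libraries were below all WT libraries. Cyp51 stood at 3.73 ± 0.11, 3.76 ± 0.26 and 4.39 ± 0.13 in the same order, and Msmo1 at 5.22 ± 0.03, 5.29 ± 0.22 and 5.70 ± 0.18 (SD, n = 3), again with no overlap. Idi1 lay below every WT library under TG placebo, at -0.60, and overlapped WT under NM-101, at -0.39. That value rested partly on WT replicate 2, and was -0.39 under TG placebo and -0.18 under NM-101 without it. Without NM-101 replicate 2 the NM-101 value was -0.25. Fdft1 differed from WT by -0.36 under NM-101 and -0.29 under TG placebo, with all TG libraries below all WT libraries. The TG placebo value of Fdft1 was -0.17 without TG placebo replicate 1. Lss, Nsdhl and Sqle lay below every WT library under NM-101, at -0.47, -0.36 and -0.26, and overlapped WT under TG placebo. The difference between the TG groups passed for none of these 3. Many other genes lay as far from WT in either direction. Under NM-101 the share of all genes doing so was 11.9% for Hmgcs1, 11.3% for Cyp51, 17.0% for Msmo1 and 24.4% for Fdft1. For Lss, Nsdhl and Sqle it was 17.8%, 23.9% and 35.1%. Under TG placebo it was 10.7% for Hmgcs1, 12.1% for Cyp51, 23.5% for Msmo1 and 37.2% for Fdft1.

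Sc5d, on chromosome 9 from 42251595 to 42264256, was the enzyme furthest above WT. It stood at 4.27 ± 0.18 under NM-101 and 4.06 ± 0.10 under TG placebo, against 3.20 ± 0.09 in WT (SD, n = 3), and the lowest TG library, at 3.97, was above the highest WT library, at 3.27. Under NM-101 it was the one enzyme above 0, while under TG placebo 7 of the 18 were. Dhcr7 was among these 7, at 3.31 ± 0.11 under TG placebo against 3.10 ± 0.13 in WT (SD, n = 3), and at 3.04 ± 0.18 under NM-101 it overlapped WT. Every TG placebo library was above every WT library for Dhcr7, but the lowest, at 3.25, nearly met WT replicate 1, at 3.23. Of all genes, 49.8% differed from WT by at least as much as Dhcr7 under TG placebo, in either direction. Of all genes, 4.80% differed from WT by at least as much as Sc5d in either direction under NM-101 and 6.66% under TG placebo. Insig2 was the gene furthest below WT, at 4.30 ± 0.14 under NM-101 and 4.28 ± 0.05 under TG placebo, against 5.08 ± 0.05 in WT (SD, n = 3). It has 4 transcripts in the table, of 674 to 2697 bases, so its level depends on how reads were divided among them. Srebf2 and Scap lay above every WT library in both TG groups, and their group means differed from WT by 0.26 to 0.35. Single libraries came closer. Srebf2 stood at 4.77 in NM-101 replicate 2 and 4.76 in WT replicate 2. Scap stood at 4.27 in TG placebo replicate 1 and 4.17 in WT replicate 1. Srebf1 was 0.60 above WT under NM-101, with no overlap, and 0.47 above under TG placebo, where WT replicate 1 reached into the range of the group. Abca1 was 0.49 above WT under NM-101, where all 3 libraries exceeded the WT ones, and 0.11 above under TG placebo. Its lowest NM-101 library, at 2.59, was close to WT replicate 1, at 2.55. The TG placebo value rested on single WT libraries, and was 0.28 without WT replicate 1 and -0.02 without WT replicate 2.

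**Figure D4:**
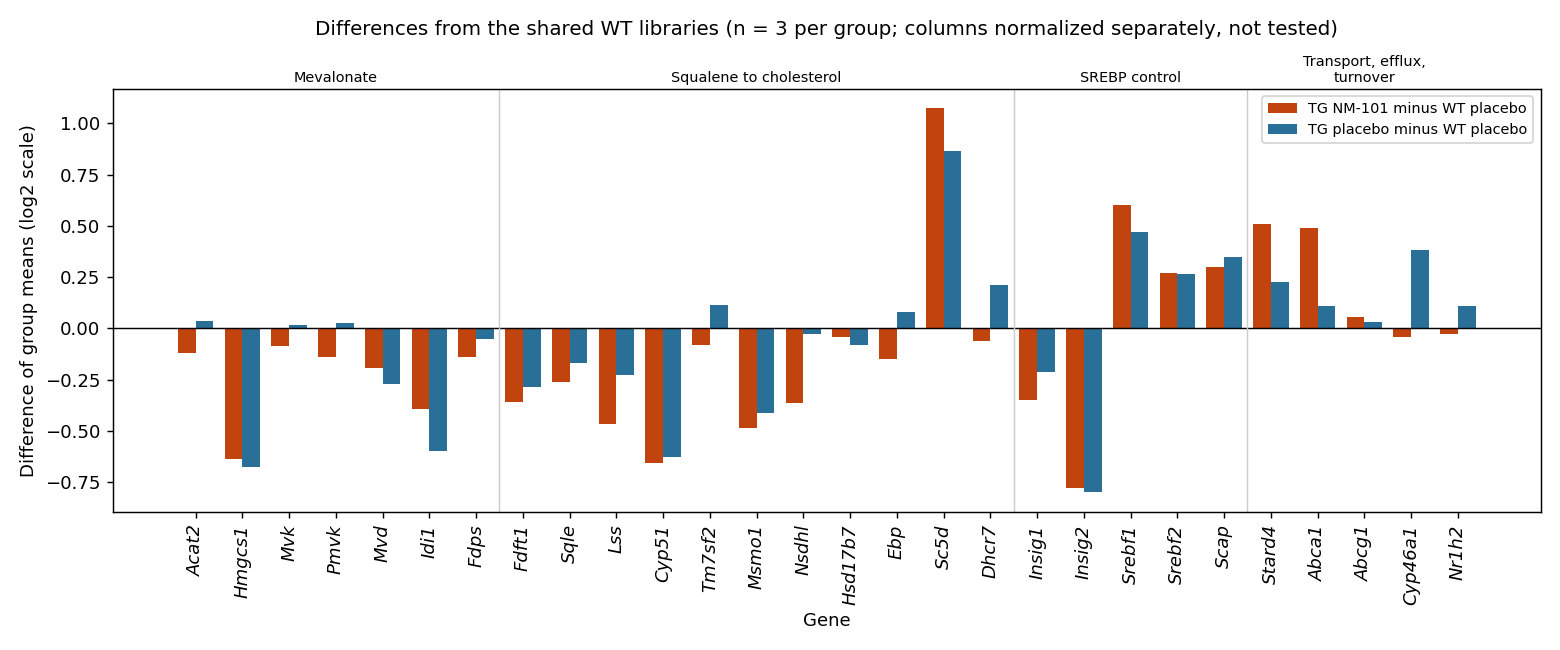
Difference of group means on the log2 scale (vertical axis) for each of the 28 genes, TG NM-101 minus WT placebo and TG placebo minus WT placebo, each with 3 libraries per group. Sc5d stands at 1.07 and 0.86 and Insig2 at -0.78 and -0.80, and the bars share the same WT libraries.

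A further list of 46 genes, of the remaining steps of synthesis and of sterol uptake, storage, oxidation and fatty acid synthesis had 42 genes in the test. None passed at an adjusted p under 0.05 in limma, while unadjusted p-values under 0.05 were found for 4 genes higher and 2 lower. Over all genes tested the shares were 10.7% higher and 4.17% lower, so both counts of the list were near them. The median difference of the 42 genes, TG NM-101 minus TG placebo, was 0.02, with 24 above 0. Over all 12699 genes the median was 0.03, with 7045 above 0. The smallest p-values belonged to Ncor1, a corepressor of nuclear receptors, with 0.34 ± 0.10 (SE), to Clu, a secreted apolipoprotein, with 0.27 ± 0.08 (SE), and to Abcg4, a sterol pump, with -0.39 ± 0.14 (SE). Abcg4 stood at 3.43, 3.35 and 3.35 under NM-101 and at 3.47, 3.85 and 3.98 under TG placebo. As with Cyp46a1 and Nsdhl, its placebo replicate 1 was the library closest to the NM-101 group. For Ncor1 and Clu the closest placebo library was replicate 2.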

How the data were processed

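Per the labels' protocols, a kit for FFPE tissue gave the RNA and QuantSeq, which reads 3′ ends, the libraries. The submitters' processing notes name Bowtie2 and mm10. How reads were counted and normalized is not given in the sources used here. In 1 table the authors deposited whole-number counts per transcript for WT and log2 values for TG. The scale of the TG values was read from the values themselves, and their depth is unknown.

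RefSeq names (GRCm38.p6) matched 32394 transcripts. TG values were made linear, summed per gene and rewritten with a pseudocount of 1. limma 3.58.1 (R 4.3.3, trend and robust) was fitted to all genes with a mean of at least 1 in the 6 TG samples, two-sided, with Benjamini-Hochberg adjustment over all of them. It was checked on simulated data. WT counts were divided by library total and by length. Fold changes on this scale understate those of low genes.

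All 28 genes were described. Values by library were given for the highest gene of each role, that with the largest difference, and those with an unadjusted p under 0.05. The highest gene of SREBP control was Insig2 in WT and Srebf2 in TG. Other genes set out by library (Pmvk, Lss, Dhcr7 and Sc5d, and in WT Mvd, Abcg1 and Srebf1) were chosen after their values were seen. Of the further list, the 3 smallest p-values were named, and Abcg4 was set out by library after its values were seen. Alternatives covered pseudocount, filter, scaling, single-transcript genes, a replicate block, the limma variance options and leaving out each library. The genes, lists and tests were chosen with earlier results of these data known.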

Additional observations from a re-analysis of the deposited data

How the results depend on the processing

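The count of genes called over the whole table, 17, was the least stable value. It was 4 with no filter on low values, 4 with median-ratio scaling, 4 without the variance trend and robust shrinkage, and from 2 to 2262 as single libraries were left out. With the replicate number as a block it was 3. Same-numbered samples did not deviate together (correlations of 0.04, -0.03 and -0.02 across genes), and not every sample correlated best with its own number. The labels do not say whether the numbers pair samples. A batch that touches only some genes could go unseen in these correlations, so pairing is unknown. None of the 28 sterol genes was called under any of these settings except Nsdhl and Cyp46a1 without TG placebo replicate 1. That fit called 2262 of 12729 genes. The median difference over the 28 genes, TG NM-101 minus TG placebo, ran from -0.14 to -0.004 over the fits that left out 1 library, and was -0.10 with median-ratio scaling, where 20 of 28 were below 0. For TG NM-101 minus WT placebo it stayed below 0, from -0.20 to -0.06. For TG placebo minus WT placebo it lay from -0.04 to 0.03 and took either sign. Of 328 refitted values of single genes, 19 changed sign, in 9 genes whose reported differences lay from -0.13 (Insig1) to 0.08 (Mvd), and none of the 19 passed the threshold. With 3 libraries per group, and 109 counts for the least counted enzyme in 1 WT library, small differences could not be seen.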
